A study of Homo sapiens with 3 samples.

Results

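Hep3B, an established human hepatoma line, was described for the genes of the integrin and laminin subunits and for ILK, TLN1, PXN and VCL, which encode adhesion proteins inside the cell. These genes were picked by symbol, in a choice made with earlier results of these data known. All 42 were present among 61533 genes: 18 integrin alpha, 8 integrin beta and 12 laminin chain genes besides the 4 intracellular ones. The cells are labelled wild type and were kept in medium with fetal bovine serum, at 20% oxygen (normoxia), at 1% oxygen (hypoxia) or at 1% oxygen with oxamate sodium, which blocks lactate dehydrogenase. Poly-T selected RNA gave 1 library per condition. The 48 hours in the series' design text are stated for the oxamate culture, and no separate time was found for the others.

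Integrins are surface receptors that pair 1 alpha with 1 beta subunit and tie the matrix outside the cell to actin inside it. The alpha subunit largely sets the ligand, and many alpha subunits share the beta subunit encoded by ITGB1. Laminins are large glycoproteins of basement membranes, each built from an alpha, a beta and a gamma chain, and several integrins are their receptors.

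The upstream bases of ITGAV, ITGA2, ITGA1 and ITGA10, alpha genes that were higher in hypoxia, and of ITGA6, which was not past the 2-fold rule given below, show which of them carry the core letters known for hypoxia-inducible factors. They are from RefSeq (GRCh38.p14), read 5′ to 3′ on the gene's strand, and stop before the transcribed bases of the gene models. Capitals mark ACGTG or GCGTG on either strand.
ITGAV (chr2:186589806-186590055, plus strand): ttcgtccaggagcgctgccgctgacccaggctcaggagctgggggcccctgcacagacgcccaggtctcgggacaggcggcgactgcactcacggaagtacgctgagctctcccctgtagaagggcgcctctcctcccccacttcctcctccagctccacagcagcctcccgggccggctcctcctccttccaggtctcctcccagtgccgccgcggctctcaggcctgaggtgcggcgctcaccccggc
ITGA2 (chr5:52989102-52989339, plus strand): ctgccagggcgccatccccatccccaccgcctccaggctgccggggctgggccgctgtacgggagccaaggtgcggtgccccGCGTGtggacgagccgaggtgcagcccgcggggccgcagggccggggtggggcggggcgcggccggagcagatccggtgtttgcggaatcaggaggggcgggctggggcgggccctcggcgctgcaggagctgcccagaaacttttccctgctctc
ITGA1 (chr5:52787666-52787915, plus strand): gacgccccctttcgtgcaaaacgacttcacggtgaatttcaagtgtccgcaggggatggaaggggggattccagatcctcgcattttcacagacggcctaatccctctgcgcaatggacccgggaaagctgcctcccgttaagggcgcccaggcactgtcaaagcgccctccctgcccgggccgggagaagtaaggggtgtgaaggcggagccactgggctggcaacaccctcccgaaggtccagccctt
ITGA10 (chr1:145910112-145910300, minus strand): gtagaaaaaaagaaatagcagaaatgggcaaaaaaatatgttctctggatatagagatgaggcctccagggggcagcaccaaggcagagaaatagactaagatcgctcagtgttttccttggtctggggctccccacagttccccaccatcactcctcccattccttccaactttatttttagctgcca
ITGA6 (chr2:172427086-172427335, plus strand): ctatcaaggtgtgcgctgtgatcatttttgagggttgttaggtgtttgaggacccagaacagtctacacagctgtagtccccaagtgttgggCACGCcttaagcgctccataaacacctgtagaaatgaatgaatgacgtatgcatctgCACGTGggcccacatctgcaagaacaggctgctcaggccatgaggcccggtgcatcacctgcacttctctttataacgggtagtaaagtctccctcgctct

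The 250 bases before each start were searched on both strands for the 30 members with a RefSeq entry, counting overlapping matches. Before the 7 starts of the 6 such members that were higher in hypoxia, ACGTG stood at 0 and GCGTG at 1, that of ITGA2. Before 23 starts of the other measured members the counts were 3 and 7. Those with ACGTG were of ILK and of ITGA6, at the printed start and a further one. The printed ITGA6 window is thus not typical of these members. A further start of ITGAV, not printed, holds neither motif. Of all 35116 windows of this length, 18.5% held ACGTG and 32.2% held GCGTG. The ITGA6 window holds both motifs, with ACGTG on both strands of 1 palindrome. A match describes letters only, and its absence says nothing of sites elsewhere.

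Fragments in genes totalled 27412147 in normoxia, 26309340 in hypoxia and 24826365 with oxamate, and values given as a series keep this order. With 1 library per condition there was no replicate and no test across samples. Ratios of scaled fragments are printed with 95% exact conditional binomial intervals, which hold counting error and not the variation between cultures. Past the rule means a ratio of 2-fold or more with 50 fragments or more in the library of the larger value. Measured means 50 fragments in either library compared, so a gene can be measured through its higher library alone. FPKM is a level per length of exon and per depth of the library, and CPM is a level per depth alone. In bulk RNA, fewer cells expressing a gene and less RNA per cell cannot be told apart. All 12 listed targets of hypoxia-inducible factors were higher in hypoxia, and ALB and AFP, markers of hepatocytes and fetal liver, ranged over 6809 to 18298 and 530.0 to 1554 CPM.

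Of the 42 members, 29 reached 50 fragments in some library. In hypoxia against normoxia, 9 of 27 measured members were higher and 0 lower, beside 10.8% and 8.07% of 13554 measured genes. Their median log2 ratio was 0.50, beside -0.11 over all measured genes. With oxamate against hypoxia, 4 of 29 were higher and 2 lower, beside 5.92% and 5.07% of 13739 genes, with medians of -0.02 and -0.01. With oxamate against normoxia, 11 of 28 were higher and 1 lower, beside 15.4% and 15.3% of 13597 genes, with medians of 0.69 and -0.11. These comparisons share libraries and are not independent. Scaling by total fragments moved the protein-coding median in hypoxia from -0.16 to -0.01 (log2).

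**Figure D1:**
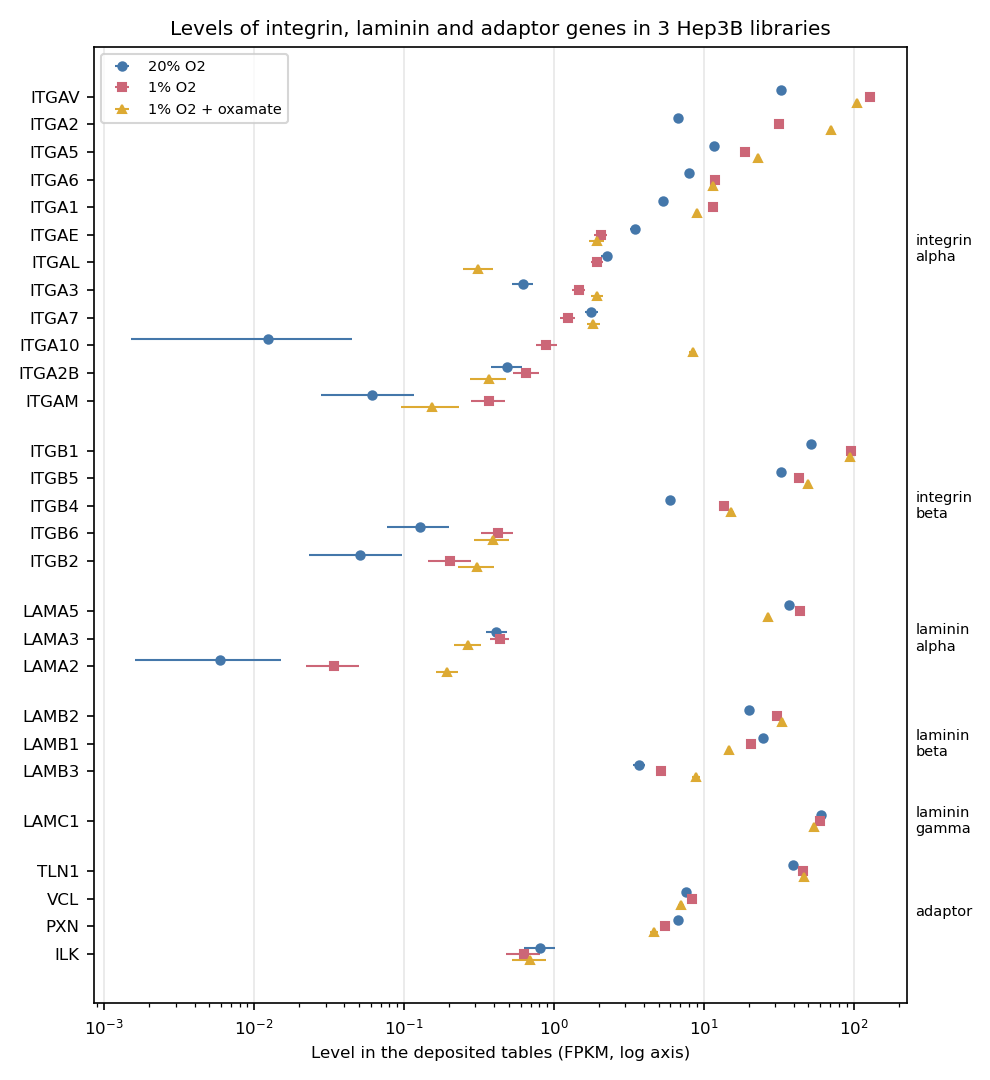
Levels of 28 members with 50 fragments in some library, in FPKM on a log axis, for each of the 3 libraries, with 95% Poisson intervals for counting error. ITGAV, ITGB1 and LAMC1 lie at the high end, and ITGA10 spreads from 0.0125 to 8.46 FPKM.

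The integrin alpha genes held 6 of the 9 members higher in hypoxia: ITGAV, ITGA2, ITGA1, ITGA3, ITGA10 and ITGAM, of 12 measured. The share of all measured genes that were higher was 10.8%. ITGA10 and ITGAM were measured in this comparison only through hypoxia. The summed level of the 18 alpha genes was 73.4, 211 and 235 FPKM. ITGAV had the highest level among them in every library.

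ITGAV encodes the subunit that binds RGD-bearing ligands such as vitronectin and fibronectin with any of several beta partners. Its fragments numbered 6964, 29260 and 21845, or 32.9, 128 and 105 FPKM. The level was low in normoxia and high in both libraries at 1% oxygen, with no overlap of the counting intervals. ITGAV was 3.93-fold higher (3.83 to 4.03) in hypoxia and 3.24-fold higher (3.16 to 3.33) with oxamate than in normoxia, and its ratio with oxamate against hypoxia was 0.826 (0.812 to 0.841). It lies at chromosome 2, 186590056 to 186680901, plus strand (hg38), with 2.47% of the exon bases shared with a further gene.

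ITGA2 encodes a collagen receptor subunit that pairs with the ITGB1 product. Its fragments numbered 1364, 7018 and 14214, or 6.72, 32.0 and 71.2 FPKM. Here the library with oxamate stood highest and normoxia lowest. ITGA2 was 4.81-fold higher (4.54 to 5.10) in hypoxia and again 2.24-fold higher (2.18 to 2.31) with oxamate against hypoxia. It lies at chromosome 5, 52989340 to 53094779, plus strand, with no exon base shared with a further gene.

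ITGA1, for another collagen receptor subunit, lies 30131 bases upstream of ITGA2 on the same strand. It counted 2549, 5946 and 4209 fragments, or 5.34, 11.5 and 8.97 FPKM, and its highest library was hypoxia. ITGA1 was 2.18-fold higher (2.08 to 2.28) in hypoxia, and its ratio with oxamate against hypoxia was 0.783 (0.753 to 0.815). Without the trend of ratios on gene length, the log2 ratio in hypoxia was 0.77, which is not past the rule. PELO, a ribosome rescue gene that overlaps ITGA1, had 573, 541 and 556 fragments and was not past the rule. Per length, the level of ITGA2 over that of ITGA1 was 1.26 (1.18 to 1.34), 2.77 (2.68 to 2.87) and 7.93 (7.66 to 8.21), so the neighbours diverged.

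ITGA10 encodes a collagen receptor subunit best known from cartilage. Its fragments numbered 2, 155 and 1335, or 0.0125, 0.893 and 8.46 FPKM, with no overlap between libraries. The level went from near the detection limit to close to that of ITGA1. On 2 fragments in normoxia the ratio in hypoxia was 72.4 (19.7 to 603) and with oxamate against normoxia 690.1 (191 to 5704). ITGA10 was 9.53-fold higher (8.06 to 11.3) with oxamate than in hypoxia. Per length its level over that of ITGA1 was 0.0774 (0.0656 to 0.0908) in hypoxia and 0.942 (0.885 to 1.002) with oxamate.

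ITGA10 lies at chromosome 1, 145891208 to 145910111, minus strand. An annotated gene that covers 1.93% of its exon bases had 0 fragments. Of 9 genes within 100000 bases that had 50 fragments in a library, 1 was higher in hypoxia, beside 10.8% of all measured genes. It was TXNIP, for a thioredoxin-binding protein, 82324 bases away, at 4.07-fold.

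ITGA3, ITGA6 and ITGA7 encode laminin receptor subunits, and ITGA3 alone of them was past the rule in any comparison. ITGA3 counted 157, 401 and 480 fragments, or 0.623, 1.47 and 1.94 FPKM. It was 2.39-fold higher (1.98 to 2.89) in hypoxia and 3.16-fold higher (2.63 to 3.81) with oxamate against normoxia, and the first interval reaches below 2-fold. ITGA6, which pairs with ITGB1 or ITGB4, counted 1368, 2196 and 1946 fragments, or 7.96, 11.8 and 11.5 FPKM. Its log2 ratio was 0.59 (0.49 to 0.68) in hypoxia, and its ratio was 0.980 (0.922 to 1.04) with oxamate against hypoxia. ITGA7, known from muscle, counted 416, 312 and 422 fragments, or 1.78, 1.24 and 1.84 FPKM, and was lowest in hypoxia. Its ratio was 0.701 (0.603 to 0.814) in hypoxia and 1.496 (1.29 to 1.74) with oxamate against hypoxia.

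ITGA5 forms the main fibronectin receptor with ITGB1. It counted 2211, 3844 and 4311 fragments, or 11.6, 18.7 and 23.1 FPKM, lowest in normoxia. Its ratio was 1.62 (1.54 to 1.71) in hypoxia, and it was 2.02-fold higher (1.91 to 2.12) with oxamate against normoxia. That value sits at the edge of the rule, and in the deposited FPKM the log2 ratio was 0.99. The level of ITGAV over ITGA5, per length, was 2.83 (2.70 to 2.97), 6.84 (6.61 to 7.07) and 4.55 (4.40 to 4.70). In the order of alpha levels ITGA5 came after ITGAV in normoxia and after ITGAV and ITGA2 in the other libraries. ITGA6 and ITGA1 were neighbours in hypoxia, at 11.8 and 11.5 FPKM, with overlapping counting intervals.

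ITGAL encodes the alpha subunit of a lymphocyte receptor for ICAM proteins. It counted 572, 533 and 78 fragments, or 2.25, 1.94 and 0.313 FPKM, and the library with oxamate lay far below the other two. With the GENCODE 29 length the levels of ITGAL were 3.44, 2.96 and 0.477 FPKM. ITGAL was 6.18-fold lower (4.86 to 7.94) with oxamate than in hypoxia and 7.09-fold lower (5.59 to 9.11) than in normoxia, while its ratio in hypoxia was 0.871 (0.772 to 0.982). Of 12 genes within 100000 bases that had 50 fragments in a library, 3 (SEPHS2, SEPTIN1 and ZNF785) were lower with oxamate against hypoxia. Of all measured genes 5.07% were lower there. Near ITGA3, which was not lower, the count was 3 of 5. ITGB2, for the beta partner of ITGAL, counted 9, 39 and 53 fragments, or 0.0509, 0.204 and 0.305 FPKM, and was 6.09-fold higher (2.98 to 14.0) with oxamate against normoxia. ITGAM, for the alpha subunit of a myeloid complement receptor, counted 9, 58 and 22 fragments, 6.02-fold higher (2.96 to 13.8) in hypoxia and 2.38-fold lower (1.44 to 4.09) with oxamate against hypoxia.

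In each library, 13 of 15 blood cell markers were below 50 fragments. Their summed level was 44.4, 34.9 and 64.1 CPM, of which LYZ gave 37.3, 31.8 and 59.9. CD14, a myeloid marker, counted 140, 22 and 17 fragments and was 6.81-fold lower (4.32 to 11.2) in hypoxia, where ITGAM was higher. PTPRC, the common leukocyte marker, had 0, 0 and 8 fragments, and CD3E, CD2 and MS4A1 had 0 in every library.

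ITGAE, which with ITGB7 binds E-cadherin, counted 593, 376 and 322 fragments, or 3.49, 2.05 and 1.93 FPKM, with a ratio of 0.593 (0.519 to 0.675) in hypoxia. HASPIN, a mitotic kinase gene sharing exon bases with ITGAE, counted 808, 390 and 418. ITGA2B, the platelet fibrinogen receptor subunit, counted 71, 104 and 53 fragments, or 0.485, 0.657 and 0.368 FPKM, with ratios of 1.37 (1.003 to 1.88) in hypoxia and 0.564 (0.397 to 0.792) with oxamate against hypoxia. The platelet markers PPBP and GP9 had 0 fragments in every library, and GP1BA had 33, 61 and 67.

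**Figure D2:**
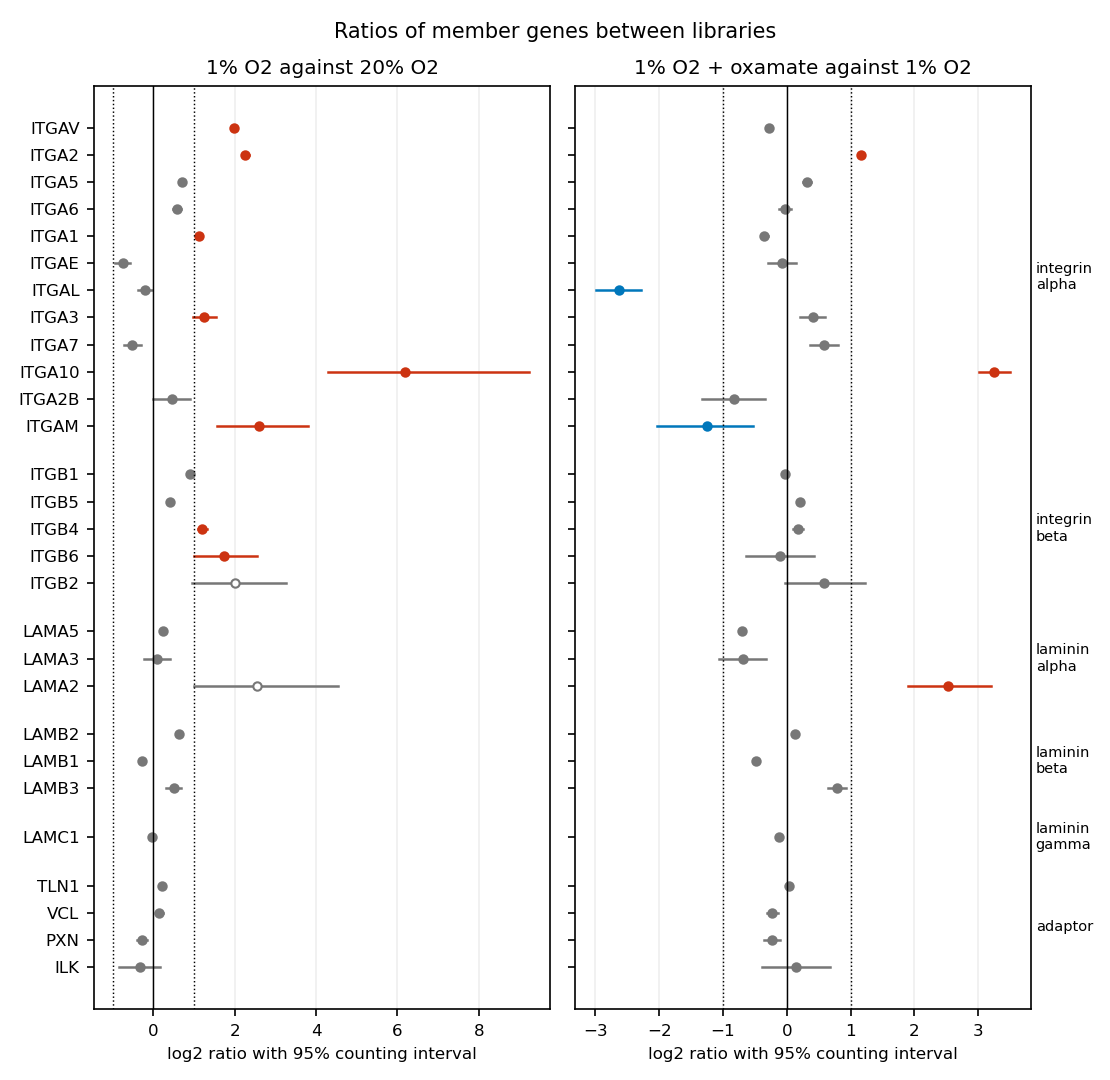
Log2 ratios of the same 28 members in hypoxia against normoxia (left) and with oxamate against hypoxia (right), with 95% counting intervals, dotted lines at 2-fold, red for higher, blue for lower, and open points for fewer than 50 fragments in both libraries. ITGA10 and ITGA2 are red in both panels, and ITGAV is red at the left only.

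Among the 8 integrin beta genes, ITGB4 and ITGB6 were higher in hypoxia, of 4 measured. With oxamate against hypoxia 0 of 5 measured passed the rule. The shares of all measured genes were 10.8% higher in hypoxia, and 5.92% higher and 5.07% lower with oxamate against hypoxia. The 0 of 5 is thus near these shares. ITGB6, at 19 and 68 fragments, was measured only through hypoxia. ITGB1, the shared partner, counted 19556, 39192 and 34892 fragments, or 52.2, 96.8 and 94.8 FPKM. It was low in normoxia and nearly level in both libraries at 1% oxygen, with ratios of 1.87 (1.84 to 1.91) in hypoxia and 0.985 (0.971 to 0.9992) with oxamate against hypoxia. Scaled by total fragments, its log2 ratio in hypoxia was 1.06, past the rule. The tables give ITGB1 14561 exon bases and GENCODE 29 gives 6011, with which its level was 126, 234 and 229.5 FPKM.

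ITGB5, a partner of ITGAV in a vitronectin receptor, counted 5504, 7873 and 8197 fragments, or 32.8, 43.5 and 49.8 FPKM, with a ratio of 1.34 (1.29 to 1.38) in hypoxia. Per length, ITGAV over ITGB5 was 1.003 (0.968 to 1.04), 2.95 (2.87 to 3.02) and 2.11 (2.06 to 2.17). The pair was level in normoxia, and ITGAV was above ITGB5 in the other libraries. ITGB1 is a further partner of ITGAV and was abundant. ITGB3 counted 42, 34 and 48 fragments, ITGB8 counted 3, 4 and 43 and ITGB6 counted 19, 68 and 57. Of the exon bases of ITGB3 51.6% overlap AC068234.1, which is listed at 0 in every library, and how fragments in both genes were counted is not stated in the labels, so the count of ITGB3 is uncertain.

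ITGB6, whose pair with ITGAV activates latent TGF-beta, was 3.34-fold higher (1.99 to 5.89) in hypoxia on these few fragments, and its interval reaches below 2-fold. A further gene that covers 20.6% of its exon bases had 0, 0 and 5 fragments. ITGB4, which pairs only with ITGA6 and anchors hemidesmosomes, counted 1037, 2561 and 2619 fragments, or 5.96, 13.6 and 15.3 FPKM. It was 2.31-fold higher (2.15 to 2.48) in hypoxia, and its ratio with oxamate against hypoxia was 1.13 (1.07 to 1.195). Per length, ITGB4 over ITGA6 was 0.749 (0.690 to 0.812), 1.15 (1.09 to 1.22) and 1.33 (1.25 to 1.41), below its alpha partner in normoxia and above it otherwise.

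Of the laminin chains, LAMA5, LAMB1, LAMB2 and LAMC1 form the common laminins of adult basement membranes. LAMA5 counted 13700, 17334 and 9683 fragments, or 37.3, 43.6 and 26.8 FPKM, lowest with oxamate. Its ratio was 1.18 (1.16 to 1.21) in hypoxia and 0.618 (0.603 to 0.634) with oxamate against hypoxia. LAMC1 counted 13227, 13939 and 11594 fragments, or 60.9, 59.4 and 54.3 FPKM, with ratios of 0.985 (0.962 to 1.009) and 0.920 (0.898 to 0.943). The interval of the first of these holds 1, and that of the second does not.

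LAMB1 and LAMB2, alternative beta chains, went apart. LAMB1 counted 11961, 10648 and 6920 fragments, or 25.0, 20.6 and 14.7 FPKM, with a ratio of 0.598 (0.581 to 0.616) with oxamate against normoxia. LAMB2 counted 3543, 5881 and 5807 fragments, or 20.1, 30.8 and 33.4 FPKM, with a ratio of 1.69 (1.62 to 1.77). Per length, LAMB2 over LAMB1 was 0.802 (0.772 to 0.833), 1.496 (1.45 to 1.54) and 2.27 (2.19 to 2.35). Which chain is more abundant depends on the gene model, since the tables give LAMB1 18592 exon bases and GENCODE 29 gives 8140, with which the ratio was 0.351, 0.655 and 0.995. Without the gene length trend, LAMB1 was past the rule as lower with oxamate against normoxia (log2 -1.13).

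LAMA3 and LAMB3 encode chains found in laminin of epithelial anchoring sites, a ligand of the integrin of ITGA6 and ITGB4. LAMB3 counted 442, 669 and 1040 fragments, or 3.70, 5.18 and 8.85 FPKM, with a ratio of 1.41 (1.25 to 1.60) in hypoxia, and was 2.43-fold higher (2.17 to 2.73) with oxamate against normoxia. LAMA3 counted 154, 175 and 98 fragments, or 0.413, 0.434 and 0.267 FPKM, with ratios of 1.06 (0.850 to 1.33) in hypoxia and 0.620 (0.479 to 0.798) with oxamate against hypoxia. LAMB3 was thus highest with oxamate, where LAMA3 was lowest.

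Per length, LAMB3 over LAMB1 was 0.148 (0.134 to 0.163), 0.251 (0.232 to 0.272) and 0.601 (0.563 to 0.642), and with the GENCODE 29 lengths 0.0642, 0.109 and 0.261. LAMA3 over LAMA5 was 0.0111, 0.00996 and 0.00998, with overlapping intervals.

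LAMA2, for the alpha chain of muscle laminin, counted 4, 25 and 130 fragments, or 0.00589, 0.0340 and 0.195 FPKM. It was 5.75-fold higher (3.73 to 9.22) with oxamate against hypoxia, and the ratio with oxamate against normoxia was 33.6 (12.8 to 125). The tables give LAMA2 26419 exon bases and GENCODE 29 gives 10358, with which its level was 0.0150, 0.0868 and 0.496 FPKM. The counting intervals of its levels did not overlap between libraries. ENSG00000226149, whose span overlaps that of LAMA2 on the minus strand, counted 7, 20 and 86 fragments. It was 4.76-fold higher with oxamate against hypoxia and 12.7-fold higher with oxamate against normoxia. Whether the counting used strand is not stated in the labels, so the level of LAMA2 is uncertain. The part of that gene in the LAMA2 values was not tested.

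**Figure D3:**
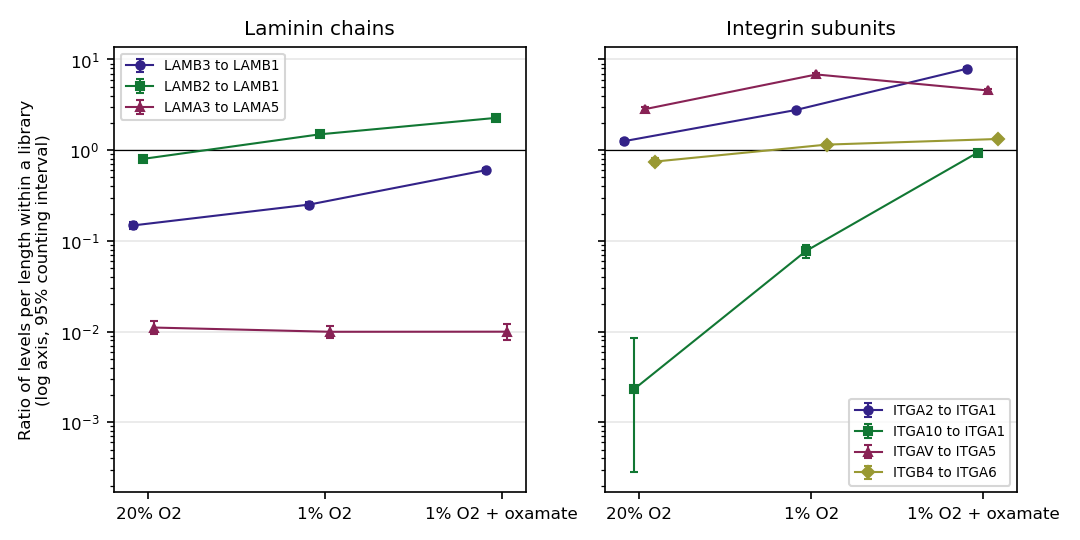
Level of 1 member over another within each library, per length of the deposited gene models, on a log axis with 95% counting intervals, laminin chains at the left and integrin subunits at the right. With the GENCODE 29 length of LAMB1 both ratios to LAMB1 are lower in every library. LAMB3 to LAMB1 goes from 0.148 to 0.601 and ITGA10 to ITGA1 from 0.00233 to 0.942.

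The 4 intracellular genes were past the rule in no comparison. The shares of all measured genes were 10.8% higher and 8.07% lower in hypoxia. With oxamate they were 5.92% and 5.07% against hypoxia, and 15.4% and 15.3% against normoxia. Among only 4 genes, a lack of calls does not set them apart from these shares. TLN1 encodes talin, which binds integrin beta tails and activates the receptor, and counted 10062, 12545 and 11598 fragments, or 39.6, 45.7 and 46.4 FPKM, with a ratio of 1.17 (1.13 to 1.196) in hypoxia. VCL, for vinculin, which links talin to actin, counted 1948, 2317 and 1792, or 7.58, 8.34 and 7.09 FPKM, with a ratio of 1.11 (1.05 to 1.18). PXN, for the scaffold paxillin, counted 1292, 1145 and 879, or 6.73, 5.52 and 4.66 FPKM, with a ratio of 0.703 (0.645 to 0.767) with oxamate against normoxia. TLN1 had the highest FPKM of the 4 in each library. Other genes cover 12.4% of the exon bases of PXN and 11.1% of those of VCL.

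ILK, the integrin-linked pseudokinase, counted 72, 61 and 61 fragments, or 0.803, 0.630 and 0.692 FPKM, and the intervals of its ratios all hold 1. Of its exon bases 78.5% overlap other genes, TAF10 on the opposite strand among them. Whether the counting used strand is not stated in the labels, so the level of ILK is uncertain.

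The 13 members below 50 fragments in every library were ITGA4, ITGA8, ITGA9, ITGA11, ITGAD, ITGAX, ITGB3, ITGB7, ITGB8, LAMA1, LAMA4, LAMB4 and LAMC3, with at most 48. ITGA4 and ITGA8 had 0 in each library, which allows up to 0.116, 0.108 and 0.120 CPM. ITGB8 had the highest ratio of these with oxamate against hypoxia, 11.9 (4.32 to 45.6), on 3, 4 and 43 fragments. With a minimum of 10 fragments, 9 of 36 members were higher in that comparison, beside 10.8% of 19323 genes, and ITGB8 was 1 of them. The members added at this minimum, ITGA9, ITGB7, ITGB8, LAMA4 and LAMB4, had 9, 2, 4, 3 and 2 fragments in hypoxia. They entered only through the library with oxamate, where they are high, so the larger count is no support for a difference.

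For this list and those below, the shares over all measured genes were 10.8% higher and 8.07% lower in hypoxia. With oxamate against hypoxia they were 5.92% and 5.07%. Of 32 measured genes for other focal adhesion adaptors, 3 were higher and 1 lower in hypoxia (median log2 ratio 0.13). The part that was higher is near the share of all genes. TNS1, for tensin, which binds beta tails and actin, counted 293, 6639 and 9630 fragments and was 21.2-fold higher (18.8 to 23.9). NEDD9, a docking protein of focal adhesion kinase signalling, was 2.50-fold higher (2.38 to 2.63), and LPXN, for the paxillin relative leupaxin, 2.47-fold higher (1.69 to 3.67). PARVB, for the ILK-binding beta-parvin, was 3.10-fold lower (2.75 to 3.51). With oxamate against hypoxia 0 were higher and 1 lower (median 0.08), the kinase gene PTK2B at 2.40-fold lower (1.79 to 3.25).

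Of 9 measured basement membrane partners of laminin, 2 were higher and 1 lower in hypoxia (median 0.34). HSPG2 (perlecan) was 2.20-fold higher (2.16 to 2.25) and AGRN (agrin) 2.13-fold higher (2.08 to 2.17), both heparan sulfate proteoglycans, and COL4A1, a collagen IV chain, 2.20-fold lower (1.56 to 3.14). With oxamate against hypoxia, 2 of 10 were higher and 0 lower (median -0.19). These were NTN4, for a netrin that binds laminin gamma chains, 2.89-fold higher (2.59 to 3.24), and COL4A4, another collagen IV chain, 4.34-fold higher (2.33 to 8.70). COL4A4 counted 4, 13 and 51 fragments and was measured only through the library with oxamate.

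Of 22 other integrin ligands measured, 4 were higher and 5 lower in hypoxia (median 0.36). The collagen VI genes COL6A2 and COL6A1 were 4.49-fold higher (3.19 to 6.45) and 4.08-fold higher (3.03 to 5.57), as were FN1 (fibronectin), 2.32-fold higher (2.29 to 2.35), and LTBP1, which holds latent TGF-beta, 3.35-fold higher (3.18 to 3.53). SPP1 (osteopontin) was 18.2-fold lower (14.3 to 23.6), with FGG, FGB, CCN2 and FBLN5 also lower. FN1, LTBP1, FGB, CCN2, FBLN5 and LPXN lie outside the naming rule and were named after their values were seen, as were SPP1, ICAM1, COL6A2, COL1A1, VTN and TGFBI in the next comparison. With oxamate against hypoxia, 4 were higher and 6 lower (median 0.07). The higher ones were CCN1 at 4.65-fold higher (4.41 to 4.91) and CCN2 at 3.77-fold higher (3.61 to 3.95), both for matricellular proteins, besides SPP1 and ICAM1. The lower ones were the fibrinogen genes FGB at 4.91-fold lower (4.005 to 6.07) and FGA at 3.18-fold lower (2.85 to 3.54), COL6A2 at 2.87-fold lower (2.15 to 3.89), COL1A1, TGFBI, and VTN (vitronectin) at 2.26-fold lower (2.13 to 2.40). Fibrinogen genes are hepatocyte genes: of 12 hepatocyte and fetal liver markers, 5 were lower and 1 higher in hypoxia, and 6 were lower and 0 higher with oxamate against hypoxia. FGB is itself 1 of these 12 markers and is among the lower ones both times. The part of the other markers in these values was not tested.

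Of 8 laminin receptors outside the integrins, SDC3, a syndecan, was past the rule in hypoxia, 2.83-fold higher (2.67 to 3.005) (median -0.26). With oxamate against hypoxia the syndecans SDC2 and SDC1 were 2.08-fold higher (2.004 to 2.16) and 2.61-fold lower (2.43 to 2.81) (median -0.18). Of 9 measured tetraspanins, hemidesmosome genes and membrane partners, DST, for the hemidesmosome linker dystonin, was 2.66-fold higher (2.57 to 2.74) in hypoxia, and SLC3A2, for the CD98 heavy chain, 2.44-fold lower (2.30 to 2.60) (median -0.04). SLC3A2 was then 2.07-fold higher (1.94 to 2.21) with oxamate against hypoxia.

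Of 14 measured genes of integrin traffic and activity, 0 were higher and 2 lower in hypoxia (median -0.22). MYO10, for a motor that carries integrins into filopodia, was 2.46-fold lower (2.32 to 2.61), and APBB1IP, which brings talin to the membrane, 2.09-fold lower (1.64 to 2.67). APBB1IP was 3.03-fold higher (2.42 to 3.83) with oxamate against hypoxia, the 1 gene of the list past the rule there (median 0.01).

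**Figure D4:**
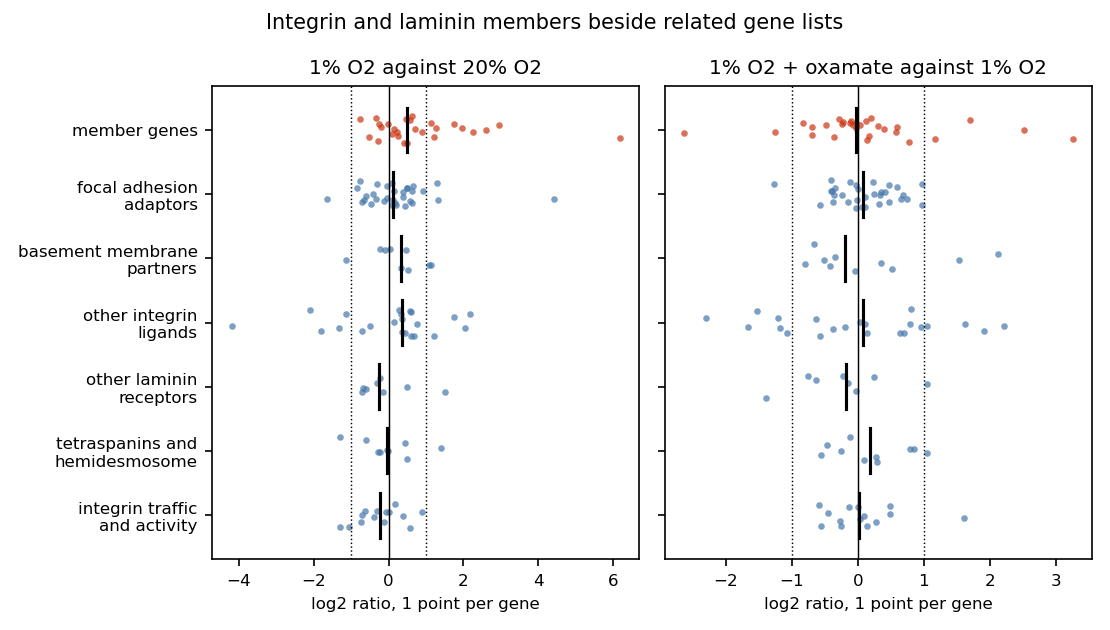
Log2 ratios of single genes with 50 fragments in either library, for the integrin and laminin members (red) and lists of related genes (blue), in hypoxia against normoxia (left) and with oxamate against hypoxia (right), with black bars for medians and dotted lines at 2-fold. The members' median is 0.50 at the left and -0.02 at the right.

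Several of these genes are also used by endothelial and stellate cells, and markers of both were checked. Of 10 endothelial markers the summed level was 19.3, 30.6 and 29.9 CPM, mostly from EGFL7 and PECAM1, with 450, 593 and 164 and 33, 230 and 499 fragments, while KDR and ERG had 0 and CDH5 had 2, 0 and 0. TIE1 counted 1, 11 and 62 fragments and, like PECAM1, was past the rule as higher with oxamate against hypoxia, while EGFL7 was 3.27-fold lower (2.74 to 3.91). Of 10 stellate cell and fibroblast markers it was 45.04, 44.8 and 38.3 CPM, mostly from LUM with 397, 412 and 580, PDGFRB with 315, 438 and 110 and PDGFRA with 336, 206 and 161 fragments, while DCN, ACTA2 and THY1 had 0 in every library. Among these, PDGFRB was 3.599-fold lower (2.91 to 4.48) and COL1A1, which is also among the ligands, 2.30-fold lower (1.65 to 3.25) with oxamate against hypoxia. PECAM1 was 6.51-fold higher (4.51 to 9.69) in hypoxia and 2.40-fold higher (2.05 to 2.82) with oxamate against hypoxia. The part of these markers in the integrin values was not tested.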

How the data were processed

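Levels are FPKM as the authors deposited them, 1 value per gene and library. The file headers give only the condition, and the unit was inferred from the values. Genome build hg38 appears in the submitters' processing notes, as do featureCounts (1.5.0-p3), StringTie (1.3.3b), HISAT2 (2.0.5) and edgeR (3.22.5), without saying what each did; strand use is not given in the sources used here. FPKM multiplied by the tables' exon length was a whole multiple of 1 constant per library for 100% of values above 0 (tolerance 0.01), and these whole numbers served as fragments.

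Scaling used trimmed means of log ratios (30% of ratios and 5% of levels trimmed) over 21987 genes with 10 fragments in all, with relative factors 0.943, 1.05 and 1.008. FPKM ratios are 0.990, 0.994 and 0.984 times those printed. Medians used a prior count of 0.5. Exon overlap on either strand came from GENCODE 29, matched by identifier for 58356 genes. Start and end equalled those of GENCODE 29 for 11 of the 42 members, so overlap in the deposited gene models can differ. Software was Python 3.11.15, scipy 1.17.1, statsmodels 0.14.6, matplotlib 3.10.9, pandas 2.3.3 and numpy 2.4.6. The procedure was tested on simulated data.

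The members and lists were chosen with earlier results of these data known. Every member with 50 fragments in a library is described except 1, which is counted but not reported here, and of each related list up to 4 genes a comparison, those of the 2 highest and 2 lowest ratios, could be named. Alternatives covered scaling, count minimum, fold, prior count, trends of length and GC, and exon overlap. Intervals treat fragments as independent molecules, which reads lacking molecular identifiers are not.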

Additional observations from a re-analysis of the deposited data

How the results depend on the processing

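No paired analysis was possible because each condition has 1 library, and no library was left out for the same reason. Of 756 alternative log2 ratios of single members, 654 stayed within the main counting interval, 102 lay outside it, and in 0 did a member past the 2-fold rule change sign. Scaling by the median of ratios had the same factors as the deposited FPKM, so not all alternatives were distinct. Wide intervals of members with few fragments are hard to leave.

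With a count minimum of 10, members lower in hypoxia went from 0 to 1, members higher with oxamate against hypoxia from 4 to 9 (median log2 ratio 0.16 in place of -0.02, a change of sign) and members higher with oxamate against normoxia from 11 to 17 (median 0.83). Of all measured genes, 15.4% were higher in the latter at the minimum of 50 and 23.0% at that of 10. A member can reach the minimum of 10 only through the library where it is high, so these larger counts are no support for a difference. In hypoxia, ITGB2 and LAMA2 were added as higher at the minimum of 10, where 19.2% of all genes were higher and 9.41% lower. With a minimum of 200, ITGA10, ITGAM and ITGB6 were no longer past the rule as higher in hypoxia. Nor was LAMA2 with oxamate against hypoxia, or ITGB2, ITGB6 and LAMA2 with oxamate against normoxia. Of all genes measured at that minimum, 6.76%, 4.42% and 11.4% were higher in these comparisons. With oxamate against hypoxia, 1 member in place of 2 was then lower, beside 3.20% of 10565 genes, and the median was 0.0053. With the whole interval past 2-fold, ITGA3 and ITGB6 were no longer called in hypoxia, nor ITGA5 and ITGB6 with oxamate against normoxia. By this rule 1 member was lower with oxamate against hypoxia. The share over all genes by this rule is not given here. With a 1.5-fold rule 13 members were higher and 1 lower in hypoxia, beside 18.7% and 21.9% of all measured genes. With oxamate against hypoxia 6 were higher and 5 lower, beside 13.7% and 13.8%, and with oxamate against normoxia 15 were higher and 4 lower, beside 24.3% and 28.7%. Restricted to members without exon overlap, 5 of 10 were higher in hypoxia (median 0.92), 2 higher and 1 lower of 10 with oxamate against hypoxia (median 0.15, a change of sign), and 4 higher and 0 lower of 9 with oxamate against normoxia (median 0.76). The share over all genes without exon overlap is not given here, so these few members cannot be set against a matching background. With oxamate against normoxia the median was 0.79 when scaled by total fragments and 0.81 when scaled on protein-coding genes. Without the gene length trend it was 0.52, and 2 members in place of 1 were lower. The share over all genes without that trend is not given here. Apart from the changed sets of members and rules, the cause of these shifts was not tested.

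Depth limits the members below 50 fragments, and the per-length levels of ITGB1, LAMB1, LAMA2, ITGAL and, by less, ITGA7 depend on the gene model, an alternative added after seeing the data.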
